A study of Homo sapiens with 4 samples.

Results

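RHBDD1 and its relatives of the rhomboid family were examined in Hap1, a near-haploid human cell line of leukaemic origin, with and without an edited BAZ2B gene. Of 9 listed genes of the family, 5 have a probe set that the array annotation names, 1 each, and they are RHBDD1 (probe set 16891637), RHBDD2 (17047397), RHBDD3 (16933564), RHBDF1 (16822296) and RHBDF2 (16849238). For RHBDL1, RHBDL2, RHBDL3 and PARL no named probe set was found, so that they were not analysed here. The 5 probe sets stand among 53617 on the array and 11235 that were tested. The control group was the parental Hap1 line (2 arrays), and the Baz2B-KO group was 1 purchased line of Hap1 with a CRISPR/Cas9 deletion in a coding exon of BAZ2B (2 arrays). Both lines grew in the same serum-supplemented medium and received no further treatment before trypsinization. It is not stated whether 2 cultures or 1 gave the RNA of a line, so the p-values and intervals below cover the scatter of the arrays alone, possibly only technical. With 1 edited and 1 parental line, the loss of Baz2B and other differences between the lines cannot be told apart.
Rhomboid proteins are membrane proteins with a shared fold of transmembrane helices. The active members are serine proteases that cut other proteins within or next to the membrane, and the inactive members, called pseudoproteases, kept the fold without the catalytic residues. RHBDD1, also known as RHBDL4, is an active protease of the endoplasmic reticulum (ER) that binds ubiquitin and the ATPase VCP and takes part in the removal of faulty membrane proteins. RHBDF1 and RHBDF2 encode iRhom proteins, pseudoproteases that carry the sheddase ADAM17 through the secretory pathway. RHBDD2, a protein of the Golgi apparatus, and RHBDD3, which holds a ubiquitin-associated domain, are also classed as pseudoproteases. RHBDD1 is thus the only active protease among the measured members.
The start regions of RHBDD1, which had the largest difference between the lines among the members, and of RHBDF1, which came next, are shown to set the sequences before the transcription start side by side. They run 5′ to 3′ over the 250 bases before the start, from RefSeq on GRCh38.p14, at chr2:226835804-226836053 on the plus strand for RHBDD1 and at chr16:72632-72881 on the minus strand for RHBDF1. Both strands were searched for 4 motifs, and capitals mark every match. The E-box CACGTG is a site of basic helix-loop-helix factors. The AP-1 motif TGANTCA is a site of the factors of the JUN and FOS families. The TATA box was searched as TATAAA, a core promoter element near the start of some genes. The GC box GGGCGG is a site of SP1 and related zinc-finger factors.
RHBDD1: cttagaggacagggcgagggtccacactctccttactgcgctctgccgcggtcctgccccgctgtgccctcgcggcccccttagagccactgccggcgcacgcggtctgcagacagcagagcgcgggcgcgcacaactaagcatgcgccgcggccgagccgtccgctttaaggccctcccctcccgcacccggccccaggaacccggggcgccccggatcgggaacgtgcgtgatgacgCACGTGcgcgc
RHBDF1: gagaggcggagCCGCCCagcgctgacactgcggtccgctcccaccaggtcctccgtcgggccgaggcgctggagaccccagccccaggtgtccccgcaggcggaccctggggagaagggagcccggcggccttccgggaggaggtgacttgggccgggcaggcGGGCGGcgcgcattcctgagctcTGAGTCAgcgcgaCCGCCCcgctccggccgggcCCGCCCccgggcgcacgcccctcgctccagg
The RHBDD1 sequence held 33 CpG dinucleotides, against a median of 11 over 35116 such windows of all genes, and 91.9% of the windows held fewer. Its only match was an E-box that began 11 bases before the start, a motif present in 6.34% of the windows. The RHBDF1 sequence held 30 CpG dinucleotides, 4 GC boxes, which 42.6% of the windows have, and 1 AP-1 motif that began 64 bases before the start, which 6.57% of the windows have. RHBDD3 and RHBDF2, each with more than 1 listed start, held between 20 and 30 CpG dinucleotides. The RHBDF2 windows held GC boxes and the RHBDD3 windows none of the motifs. Of the 5 measured members, 4 are in the promoter table, and RHBDD2 is not. These matches describe letters only, and nothing on these arrays measured binding to them.
RHBDD1 had the widest gap between the lines among the members. Its log2 intensity was 3.15 and 2.94 in the 2 Hap1 controls and 5.07 and 5.22 in the 2 Baz2B-KO arrays. Both Baz2B-KO arrays thus lay above both controls, with a gap of 1.92 on the log2 scale between the nearest arrays of the lines, whereas the arrays within a line differed by 0.21 in the control and 0.15 in Baz2B-KO. The means were 3.04 ± 0.15 (SD, n = 2) and 5.14 ± 0.11 (SD, n = 2), a log2 fold change of 2.10 (standard error 0.13, 95% interval 1.80 to 2.39) and 4.28-fold on the linear scale (3.49 to 5.26). Only the rise of TCEAL9 was larger among the 11235 tested probe sets. RHBDD1 was chosen by this difference, the log2 intensity of Baz2B-KO against the control, and the other members as its family. It is therefore given as a description and not as a test. Both controls lay under the intensity limit of 3.5 that a probe set had to exceed in at least 2 arrays, so RHBDD1 was retained through the Baz2B-KO arrays alone and had to differ to be tested. The array normalization compresses differences near the background, so that the fold may understate the change if the control signal is background. The choice of RHBDD1 by its large difference works the other way, and neither bias was measured here.
The 4 pseudoprotease genes were above the limit in all 4 arrays, and none of them passed the test. Of the 5 members, 1 was thus past an adjusted p under 0.05 in limma, in the higher direction, where 0.276% of all tested probe sets were called higher and 0.392% lower. RHBDD1 entered the list with its value known, so nothing is read from that share.
RHBDF1, the gene of iRhom1, had 5.14 and 4.80 in the controls and 4.78 and 4.71 in Baz2B-KO. Both Baz2B-KO arrays lay below both controls, by a gap of only 0.020 on the log2 scale, which is smaller than the difference of 0.34 between the controls. The log2 fold change was -0.22 (standard error 0.14, 95% interval -0.55 to 0.10), and it was -0.05 without control replicate 1 and -0.39 without control replicate 2.
RHBDF2, the gene of iRhom2, had 5.22 and 5.48 in the controls and 5.35 and 5.39 in Baz2B-KO, so that the Baz2B-KO arrays lay between the controls. Its log2 fold change was 0.02 (standard error 0.13, 95% interval -0.28 to 0.32). It took the opposite sign without control replicate 1, at -0.12, and was 0.15 without control replicate 2. The pair of iRhom genes therefore showed no difference between the lines that exceeded the spread of the controls.
RHBDD2, the Golgi member, had 6.57 and 7.14 in the controls and 6.77 and 6.75 in Baz2B-KO. The controls of RHBDD2 lay on either side of the Baz2B-KO arrays, and they differed by 0.57, more than in 97.8% of all tested probe sets. The log2 fold change of -0.10 (standard error 0.18, 95% interval -0.53 to 0.33) was -0.38 without control replicate 1 and 0.19 without control replicate 2, so its sign rests on which control is used. RHBDD3 had 4.90 and 5.001 in the controls and 5.02 and 5.06 in Baz2B-KO. Its Baz2B-KO arrays were both above the controls, by a gap of 0.022, and the log2 fold change was 0.09 (standard error 0.11, 95% interval -0.17 to 0.35).

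**Figure D1:**
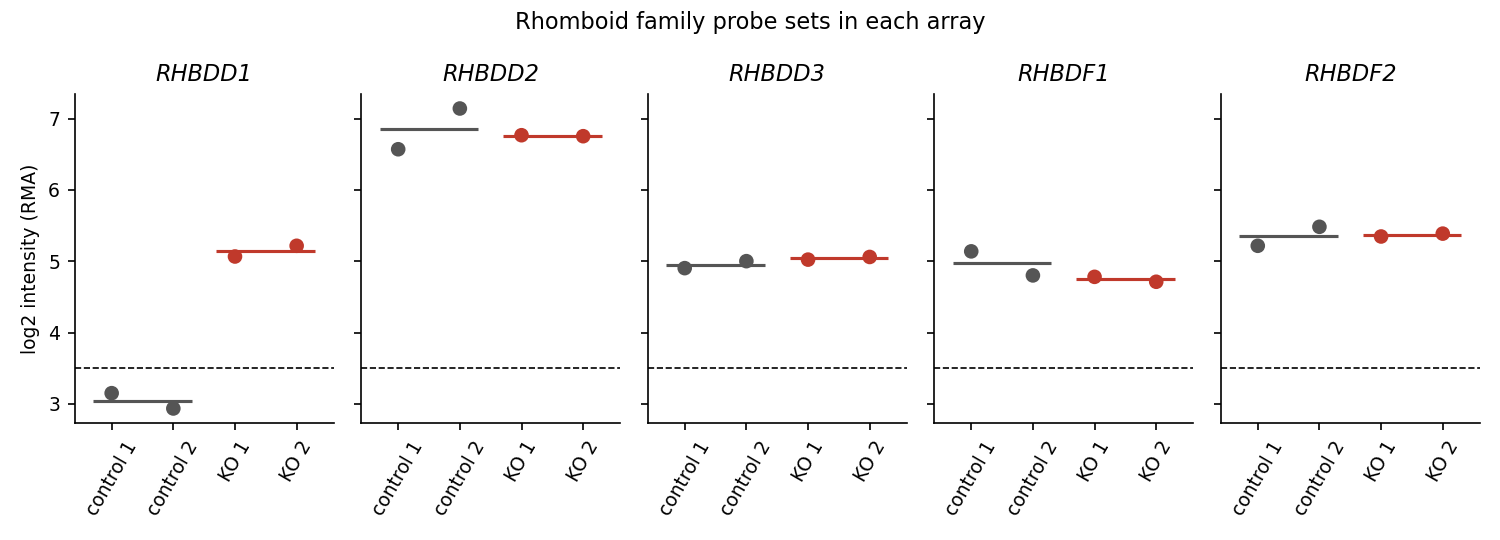
The log2 intensity (vertical axis) of the 5 measured rhomboid genes in each of the 4 arrays, with controls in grey, Baz2B-KO in red, group means as short lines and the intensity limit of 3.5 as a dashed line. RHBDD1 goes from 3.15 and 2.94 in the controls to 5.07 and 5.22 in Baz2B-KO, and the other 4 genes stay above the limit in every array.

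The arrays of the lines did not overlap for 3 of the 5 members, namely RHBDD1 and RHBDD3 (higher) and RHBDF1 (lower). Of all tested probe sets 37.8% do not overlap, 21.9% with Baz2B-KO above and 15.9% below. RHBDD1 was chosen by its difference between the lines, so nothing is read from its part in the count of members. Over the members other than RHBDD1, the 95% intervals ran from -0.55 at the lowest bound to 0.35 at the highest. In all 4 of these genes the gap between the controls, 0.10 to 0.57, was wider than that between the Baz2B-KO arrays, 0.014 to 0.069. Over all tested probe sets the median difference was 0.148 between the controls and 0.115 between the Baz2B-KO arrays. By size, the change of RHBDD1 exceeded that of 99.9% of the tested probe sets, RHBDF1 that of 80.8%, RHBDD2 46.9%, RHBDD3 44.4% and RHBDF2 9.49%.

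**Figure D2:**
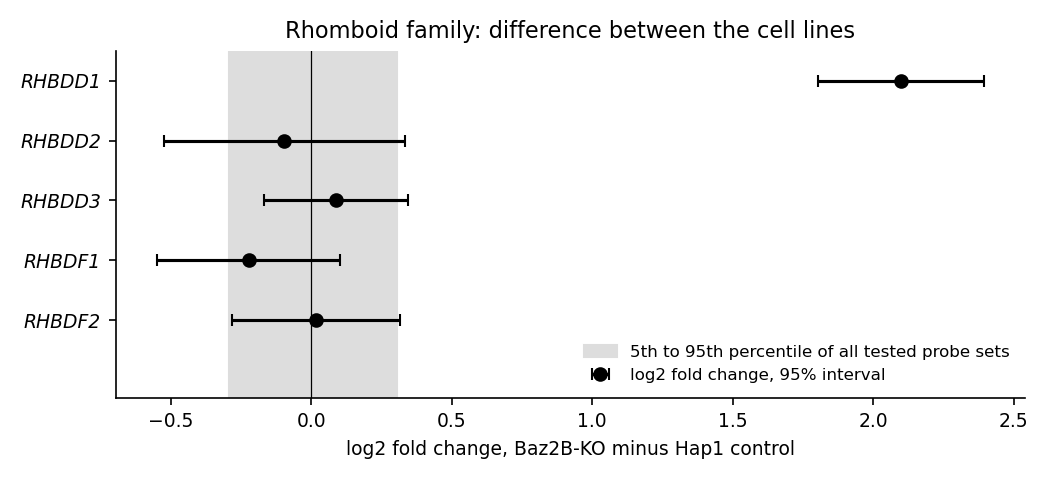
The log2 fold change (horizontal axis, Baz2B-KO minus Hap1 control) of each member with its 95% interval from limma, over a grey band from the 5th to the 95th percentile of all tested probe sets, -0.29 to 0.31. The value of RHBDD1, 2.10, lies outside the band, and those of the other 4 members, between -0.22 and 0.09, lie inside it.

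Leaving out 1 array left the size of the RHBDD1 difference much the same, between 1.99 without control replicate 2 and 2.21 without control replicate 1. Without either control none of the 11235 probe sets passed the test, RHBDD1 included (lowest adjusted p = 0.0542 without control replicate 1 and 0.0564 without control replicate 2, from limma, with 935 and 1419 probe sets at an unadjusted p under 0.05). In each fit without 1 array the spread comes from the other line alone, and the single array is assumed to vary like it.
The genes beside RHBDD1 on chromosome 2 were compared to see whether the difference extended along the chromosome. None of the tested neighbours passed in either direction, where 0.668% of all tested probe sets passed. With so few neighbours tested, that count cannot show whether the difference extends along the chromosome. IRS1, which encodes the insulin receptor substrate and is the next gene before RHBDD1 on the opposite strand, had 4.26 and 4.58 in the controls and 4.22 and 4.11 in Baz2B-KO. Its log2 fold change was -0.25 (95% interval -0.57 to 0.07, adjusted p = 0.645 from limma), opposite in sign to RHBDD1. On the other side the nearest measured gene was MFF, which encodes a receptor for the mitochondrial fission machinery. MFF had 7.28 and 7.06 in the controls and 6.93 and 7.26 in Baz2B-KO, so the lines overlapped, with a log2 fold change of -0.07 (95% interval -0.42 to 0.27, adjusted p = 0.938 from limma). The collagen gene COL4A4, which overlaps the span of RHBDD1 in RefSeq on the opposite strand, has no named probe set and was not analysed here. The tables used do not show which part of RHBDD1 the probes cover.
Over the 10 measured genes on either side, 10 of 20 genes had a tested probe set. Of these, 0 were higher, 0 were lower and 10 did not pass (limma), where 0.668% of all tested probe sets passed. An unadjusted p under 0.05 was found for 2 of the 10, against 9.85% of all tested probe sets. The median log2 fold change of the tested neighbours was -0.05, against 0.02 over all tested probe sets, and 8 of the 10 had a size under 0.5. The exceptions, named after their values were seen, were FAM124B at -0.95 (adjusted p = 0.0661 from limma) and FBXO36, an F-box protein gene, at -0.52 (adjusted p = 0.423), and both were lower in Baz2B-KO. FAM124B, the seventh measured gene before RHBDD1, had 4.45 and 4.16 in the controls and 3.54 and 3.17 in Baz2B-KO. Its adjusted p ranged from 0.0367 to 0.388 over 12 other settings, and it passed in 2 of them, with the arrays centred on their medians and with a replicate block.

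**Figure D3:**
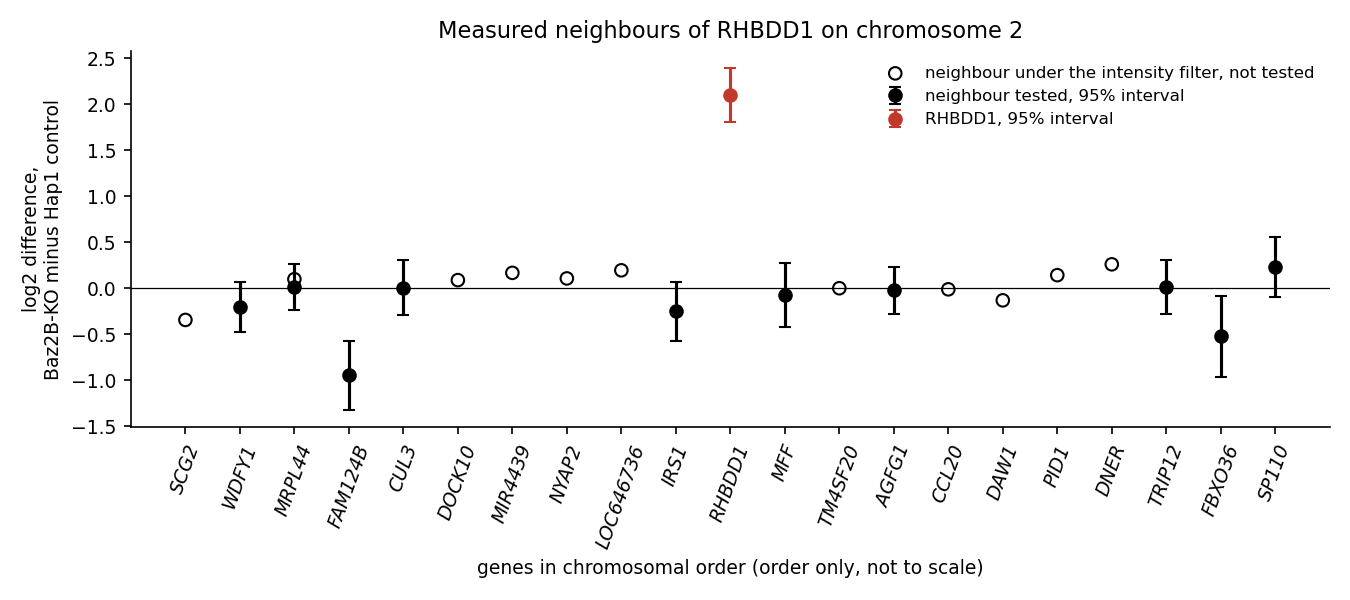
The log2 difference (vertical axis, Baz2B-KO minus Hap1 control) of RHBDD1 in red and of the 10 measured genes on each side in chromosomal order, with 95% intervals for tested probe sets and open circles for those under the intensity filter. RHBDD1 stands at 2.10 between IRS1 at -0.25 and MFF at -0.07.

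Genes that work with rhomboid proteins were then examined in 8 lists of 150 genes, of which 102 have a named probe set and 94 were tested. None of the 94 was past the test (limma), where 0.668% of all tested probe sets passed. Of the 94, 8 had an unadjusted p under 0.05, against 9.85% of all tested probe sets. The largest log2 fold change among the 94 was 0.49 in size. A gene with several probe sets is given by the brightest.
The ER list comes closest to the role of RHBDD1. Of 38 genes of ER-associated degradation, the route by which faulty ER proteins reach the proteasome, 20 were tested, and the median log2 fold change was 0.03, against 0.02 over all tested probe sets. VCP, the ATPase that pulls these proteins out of the membrane, had 9.73 and 9.76 in the controls and 9.84 and 9.85 in Baz2B-KO. Its log2 fold change was 0.10 (95% interval -0.15 to 0.35). The largest differences in size of this list were those of the ubiquitin-conjugating enzyme gene UBE2G2 at -0.22 (95% interval -0.55 to 0.10) and of FAF2, which recruits VCP to the ER, at 0.21 (95% interval -0.04 to 0.46). Of 9 reported substrates of RHBDD1, 5 were tested, with a median of 0.06. Among these substrates PTCRA, the pre-T-cell receptor alpha chain, was at 0.19 (95% interval -0.13 to 0.51), and BIK, a BH3-only inducer of apoptosis, was at 0.19 (95% interval -0.12 to 0.50). The substrate list says nothing of cleavage, which acts on the protein. Of 24 genes of the unfolded protein response, 15 were tested, with a median of 0.0048 and the extremes at the stress factor gene DDIT3, at -0.49 (95% interval -0.76 to -0.22, adjusted p = 0.185 from limma), and at CRELD2, which encodes a secreted ER stress protein, at 0.30 (95% interval -0.01 to 0.61). For DDIT3 both Baz2B-KO arrays, at 3.59 and 3.66, lay under both controls, at 4.03 and 4.20.
The iRhom genes act through ADAM17, whose values of 7.61 and 7.31 in the controls and 7.49 and 7.39 in Baz2B-KO overlapped (log2 fold change -0.02, 95% interval -0.34 to 0.29). FRMD8, which stabilises the complex of iRhom and ADAM17 at the cell surface, was at 0.06 (95% interval -0.28 to 0.41). Of 16 genes of this list, 12 were tested, with a median of 0.06, and the extremes were the Notch ligand gene DLL1 at -0.36 (95% interval -0.61 to -0.11, adjusted p = 0.309 from limma) and NOTCH1 at 0.35 (95% interval 0.01 to 0.69, adjusted p = 0.499). Both encode proteins that are cut at the cell surface. The 2 probe sets of TIMP3, an inhibitor of ADAM17, differed, with -0.04 for the brighter and -0.34 for the dimmer.
Some ligands of the EGF receptor family are cut by rhomboid proteases in the fly, and some by ADAM17 in mammals. Of 15 ligands and receptors of this family, 12 have a named probe set and 6 were tested, with a median of -0.06. EGFR itself lay under the intensity limit in all 4 arrays, at 2.62 and 2.83 in the controls and 2.91 and 2.95 in Baz2B-KO, as did 4 other genes of the list. The extremes were the neuregulin gene NRG4 at -0.49 (95% interval -0.80 to -0.18, adjusted p = 0.259 from limma) and ERBB3, a receptor for neuregulins, at 0.34 (95% interval 0.08 to 0.60, adjusted p = 0.364). Both were tested, and neither passed.
PARL, the mitochondrial rhomboid protease, was not analysed here, but genes of its substrates and of other mitochondrial proteases were. Of 29, 20 were tested, with a median of -0.03. PINK1, a kinase that PARL cuts on import, had 6.15 and 6.52 in the controls and 6.26 and 6.29 in Baz2B-KO, between the controls. The largest in size were the inner membrane peptidase genes IMMP2L, at -0.43, and IMMP1L, at -0.24 (95% interval -0.53 to 0.05). IMMP2L had 4.29 and 3.53 in the controls and 3.46 and 3.49 in Baz2B-KO, so that it exceeded the intensity limit of 3.5 through the controls alone. With both Baz2B-KO arrays under the limit, it could be tested only because both controls lay above it.
Other genes of the same fold or the same kind of protease did not pass either, where 0.668% of all tested probe sets passed. All 5 further rhomboid-like pseudoprotease genes were tested, and their log2 fold changes lay between 0.03 and 0.15 with a median of 0.09. They include the derlin genes DERL3 at 0.15 (95% interval -0.26 to 0.56) and DERL1 at 0.11 (95% interval -0.14 to 0.36), whose proteins form part of the channel for ER-associated degradation. Of 15 genes of intramembrane proteases of other families and their partners, 11 were tested, with a median of 0.06. The gamma-secretase subunit gene NCSTN was at -0.19 (95% interval -0.45 to 0.07) and the CAAX protease gene ZMPSTE24 at 0.11 (95% interval -0.16 to 0.39). The brighter probe set of SPPL2A, a signal peptide peptidase-like protease gene, was at 0.10 and the dimmer at 0.37.

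**Figure D4:**
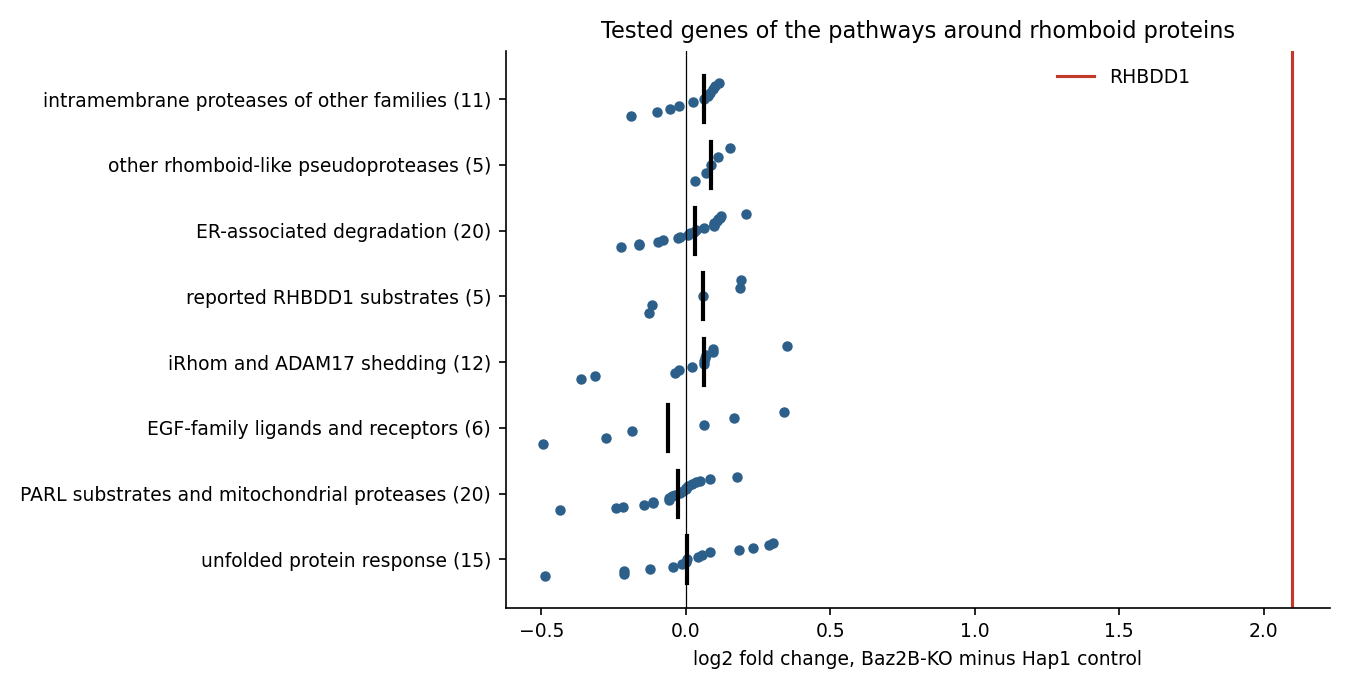
The log2 fold change (horizontal axis, Baz2B-KO minus Hap1 control) of each tested gene of the 8 lists, 1 point per gene, with the list median as a black bar, the number of tested genes in brackets and RHBDD1 as a red line. The point farthest from 0 is NRG4 at -0.49, and RHBDD1 lies at 2.10.

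The probe sets whose pattern came nearest to that of RHBDD1 were sought over the 4 arrays, by the Euclidean distance after the mean of each probe set over the arrays was subtracted. The nearest was TCEAL9, at a distance of 0.26, followed by TNMD at 0.58, HOXD13 at 0.67, MME at 0.73 and BMP3 at 0.79. Their correlations with RHBDD1 were between 0.95 and 0.99 over 4 arrays, which share their cell lines, and carry no test. TCEAL9 had 5.17 and 5.07 in the controls and 7.36 and 7.16 in Baz2B-KO. With 4 arrays the measure mostly ranks probe sets by how close their difference between the lines is to 2.10, and these 5 have log2 fold changes of 1.39 to 2.14.

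**Figure D5:**
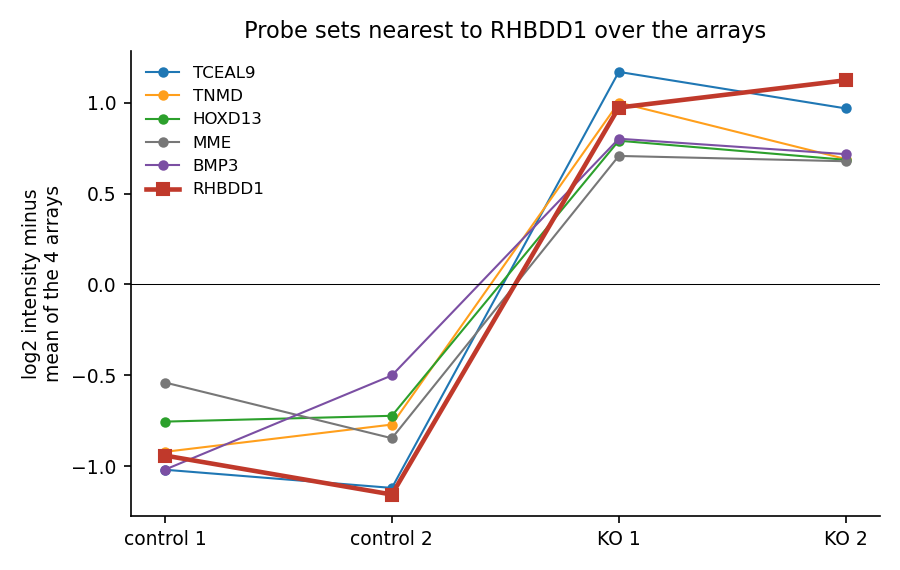
The log2 intensity minus the mean of the 4 arrays (vertical axis) for RHBDD1 in bold red and the 5 nearest probe sets, in each array. All 6 are below 0 in both controls and above 0 in both Baz2B-KO arrays, and TCEAL9, at a distance of 0.26, lies closest to RHBDD1.

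The arrays as a whole were alike, with correlations of 0.983 to 0.992 over the tested probe sets and medians of 3.53 to 3.55 over all probe sets. BAZ2B has no named probe set, so the edited gene was not analysed here. Of 14 haematopoietic marker genes 10 are named and 6 were tested, among them LYN at 7.56 to 7.84 and GATA1 at 4.63 to 4.78. CD38 was under the limit in all arrays, and CD34, MPO and RUNX1 exceeded it in 1 array each. The summed log2 level of the 10 named genes was 40.8 to 41.0 in the controls and 40.8 to 41.7 in Baz2B-KO. Of 8 fibroblast markers 3 are named. LUM and DCN were under the limit in all arrays, and THY1 was tested, at 4.02 to 4.15. The fibroblast sums were 7.27 to 7.37 in the controls and 6.95 to 7.47 in Baz2B-KO. Of 8 epithelial markers 7 are named, with sums of 36.6 to 37.9 in the controls and 37.6 to 37.9 in Baz2B-KO. The brighter probe set of KRT18 was at 7.59 to 7.87, and CLDN4 and GRHL2 were under the limit in all arrays. No marker passed the test (limma), where 0.668% of all tested probe sets passed. For 2 markers the unadjusted p was under 0.05, against 9.85% of all tested probe sets. The median log2 fold change of the tested haematopoietic markers was -0.0036, with a range of -0.07 to 0.28. That of the tested epithelial markers was -0.02, with a range from -0.29 at KRT8 to 0.64 at ESRP1. Over all tested probe sets the median was 0.02. The epithelial splicing factor gene ESRP1 had 4.45 and 4.42 in the controls and 5.15 and 5.01 in Baz2B-KO. Its log2 fold change of 0.64 (95% interval 0.38 to 0.91, adjusted p = 0.0734 from limma) was larger in size than in any of the 94 genes of the pathway lists. The adjusted p of ESRP1 ranged from 0.0351 to 0.433 over 13 other settings, and it passed in 2 of them, with the arrays centred on their medians and with the stricter limit of 5, which it exceeded in the Baz2B-KO arrays alone. SPI1, a transcription factor of blood cells, was at 0.28 (95% interval 0.01 to 0.55, adjusted p = 0.5005). Both were named after their values were seen, and the part of such markers in the difference of RHBDD1 was not tested.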

How the data were processed

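Total RNA of the 2 Hap1 lines was hybridised, 2 arrays each, to Affymetrix GeneChip Human Gene 2.0 ST arrays. Reading with oligo and normalization by RMA were done by the authors, who deposited log2 intensities for 53617 probe sets without a filter. Which version of each was run is not given in the sources used here. Arrays give no depth, and their number limits the precision. Probe sets above 3.5 in at least 2 arrays (27722) with 1 gene in the platform annotation, none having several, were tested (11235, for 10473 genes). The linear model and empirical Bayes step of limma 3.58.1 (R 4.3.3) were fitted without covariates, Baz2B-KO minus Hap1 control, with Benjamini-Hochberg adjustment over all 11235. For each of the 16098 named probe sets the Entrez identifier has the same symbol in RefSeq, GRCh38.p14. The supplementary result table of the study, of which 1999 rows were held, was used for names only, and its fold changes and p-values were not used. In the rows held, it names RHBDD1 alone of the family, by the same probe set.

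The members, the gene lists and the tests were chosen with earlier results of these data known. Named genes were all members, the nearest measured neighbours, the 2 largest differences of each list and the 5 nearest probe sets; VCP, ADAM17, FRMD8, PINK1, EGFR and the markers were added for their roles, and genes with disagreeing probe sets after their values were seen. Neighbours follow the order of genes in RefSeq. The fit was run on simulated data with independent errors drawn from its own fitted variances. Such data cannot show how the fit performs if the arrays of a line share a culture. Alternatives were other filters, a trend, robust eBayes, a replicate block, other scalings, each array left out, averaged probe sets per gene and names from the supplementary table. Figures were drawn with matplotlib 3.10.9.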

Additional observations from a re-analysis of the deposited data

How the results depend on the processing

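Of the settings that use all arrays, only the scalings could move the log2 fold change of a member. RHBDD1 was at 2.11 with the arrays centred on their medians and at 2.07 after a renewed quantile normalization, and at 1.99 to 2.21 when 1 array was left out. In the same fits without 1 array, RHBDD2 ranged from -0.38 to 0.19, RHBDD3 from 0.04 to 0.14, RHBDF1 from -0.39 to -0.05 and RHBDF2 from -0.12 to 0.15. Under both scalings RHBDD2 was at -0.09 and -0.10, RHBDD3 at 0.10 and 0.08, RHBDF1 at -0.21 and -0.24 and RHBDF2 at 0.03 and 0.01. The stricter filter left RHBDF1 untested. Over all tested probe sets, 31 were higher and 44 lower. The counts were 16 and 25 with no intensity filter and 4 and 22 with all retained probe sets, both with more probe sets tested, and 0 to 15 and 0 to 27 without 1 array. With the replicate number as a block they were 13 and 25, which leaves 1 residual degree of freedom. The labels do not say that a number marks a pair, and the deviations of same-numbered arrays correlated at 0.158 over 11235 probe sets. Of the neighbours, 1 (FAM124B) was lower with the replicate block and with the arrays centred on their medians, against 0 in the main fit, and the cause was not tested. The counts of the gene lists were 0 in every setting that used all arrays. In those settings 4 to 9 of their probe sets, or genes where averaged, had an unadjusted p under 0.05 from limma. The 4 came with the stricter filter, where 700 of 7477 tested probe sets had one, and with all retained probe sets, where 2321 of 27722 did. The 9 came with the arrays centred on their medians, where 1171 of 11235 did. Differences of dim probe sets such as RHBDD1 in the controls are limited by the closeness of their signal to the background.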
